A study of Mus musculus with 6 samples.

Results

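Cxcl9, Cxcl10 and Cxcl11, the interferon-induced chemokines that bind the receptor CXCR3, were examined in M1-type macrophages of wild-type (WT) and Cd226-/- mice. They were taken by symbol from a count table of 46095 genes, all 3 had a row, and all 3 were among the 13215 genes with enough counts to test. The cells were bone marrow-derived macrophages of C57BL/6 mice aged 56 days, differentiated with M-CSF (20 ng/ml, 7 days) and then stimulated with IFN-γ (20 ng/ml) plus LPS (100 ng/ml) for 24 h. Both genotypes received the same stimulus, with 3 libraries each (WT replicates 1 to 3 and Cd226-/- replicates 1 to 3), so the design compares genotypes after stimulation and holds no unstimulated sample. How the Cd226 allele was made, and whether replicates came from separate mice or cultures, is not given in the sources used here, so the spread behind each p-value is that of these samples and may be technical. Where 3 values are given for a genotype, they are in the order of replicates 1, 2 and 3.

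CXCL9 (MIG), CXCL10 (IP-10) and CXCL11 (I-TAC) are small secreted proteins that draw activated T cells and NK cells, which carry CXCR3, towards inflamed tissue. IFN-γ switches their genes on through the JAK kinases and IRF1, and LPS adds NF-kB and, through type I interferon, STAT2 with IRF9. Cxcl9 is the member most closely tied to IFN-γ, whereas Cxcl10 also answers strongly to type I interferon and NF-kB. The C57BL/6 strain carries a frameshift in Cxcl11 and makes no functional CXCL11 protein, so here its transcript is a readout of the locus and not of a working chemokine.

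The targeted gene was barely detected. Cd226, the activating adhesion receptor CD226 (DNAM-1), had 5, 17 and 23 counts in the WT libraries against 11, 10 and 8 in the Cd226-/- libraries, and did not pass the test (adjusted p = 0.480), so the counts did not check the genotype labels. Total counts per library ranged from 16838527 to 21658061. Macrophage markers were abundant, and the summed level of 8 of them (such as Csf1r, Adgre1 and Lyz2) was 17932 to 19895 CPM in WT and 19212 to 20005 CPM in Cd226-/-. Lyz2 made up most of that sum and did not pass the test, while 4 of the 8 passed as higher (such as Cd68, log2 fold change 0.39, and Mertk, 0.30) and 3 as lower (such as Itgam, -0.30, and Csf1r, -0.29). CPM is the count relative to library size, after scaling by the trimmed mean of M-values (TMM). Of the lymphoid cells that answer to these chemokines, 8 T cell markers summed to 5.43 to 7.55 CPM in WT and 6.95 to 9.23 CPM in Cd226-/- (Trac at 0 in all libraries), and 6 NK cell markers to 2.63 to 3.71 and 3.48 to 3.87 CPM. Markers of some other cells were higher in Cd226-/-. For B cells 5 of 5 markers passed the test as higher (summed level 12.2 to 15.1 CPM in WT and 30.0 to 39.3 CPM in Cd226-/-). So did 5 of 6 fibroblast or stroma markers (497 to 578 and 769 to 801 CPM) and 2 of 3 tested endothelial markers. Over all tested genes, 16.1% were called higher. Of 4 tested dendritic cell markers 1 passed as higher (Ccr7, log2 fold change 0.54). Flt3 (0.71), Zbtb46 (0.024) and Clec9a (-0.32) did not pass. None of the 7 T cell, 2 NK cell and 2 neutrophil markers that could be tested passed, and none of 4 hepatocyte markers could be tested. The hepatocyte markers, led by Alb, summed to 18.4 and 18.5 CPM in Cd226-/- replicates 2 and 3, to 0 in Cd226-/- replicate 1 and to at most 0.0584 CPM in WT. Their part in the results on the 3 chemokines was not tested.

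The 3 genes lie side by side on the minus strand of chromosome 5 (GRCm38), between 92321347 and 92365485. Cxcl9 spans 92321347 to 92328079, Cxcl10 spans 92346638 to 92348889, and Cxcl11 spans 92359544 to 92365485 in GENCODE M21. The first 2 are annotated as protein-coding, whereas Cxcl11 is a polymorphic pseudogene in GENCODE and a transcribed pseudogene in RefSeq. The GENCODE model of type protein-coding skips 2 bases of the reference after 36 coding bases (chr5:92363177-92363178) and then reads 99 codons before a stop, while the model of type polymorphic pseudogene keeps those 2 bases and meets a stop after 36 codons. Both start-codon stretches are shown because they set what a Cxcl11 count stands for in this strain. They are read 5′ to 3′ from the GENCODE M21 transcripts, from the start codon at 92363214 to 92363153 on the minus strand, with the 2 skipped bases in capitals.

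Cxcl11-201: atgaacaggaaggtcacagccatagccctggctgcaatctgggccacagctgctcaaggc
Cxcl11-202: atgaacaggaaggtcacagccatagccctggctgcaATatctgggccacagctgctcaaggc

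The 250 bases before the start of Cxcl9 and of Cxcl10 are shown because IFN-γ and LPS act on such genes through elements near the start. They are from the RefSeq promoter table (GRCm38.p6), which matched 2 of the 3 symbols, and run 5′ to 3′ on the minus strand, chr5:92328080-92328329 for Cxcl9 and chr5:92348890-92349139 for Cxcl10. Capitals mark matches, on either strand, to the core of the interferon-stimulated response element (ISRE, read as GAAA, any 2 bases and GAAA), the gamma-activated site (GAS, read as TTC, any 3 bases and GAA) or the kappa B consensus that NF-kB binds.

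Cxcl9: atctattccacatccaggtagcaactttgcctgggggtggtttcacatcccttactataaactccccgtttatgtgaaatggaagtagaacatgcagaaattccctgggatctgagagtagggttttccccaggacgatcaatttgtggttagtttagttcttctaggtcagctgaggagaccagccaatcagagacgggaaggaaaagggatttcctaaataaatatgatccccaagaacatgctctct
Cxcl10: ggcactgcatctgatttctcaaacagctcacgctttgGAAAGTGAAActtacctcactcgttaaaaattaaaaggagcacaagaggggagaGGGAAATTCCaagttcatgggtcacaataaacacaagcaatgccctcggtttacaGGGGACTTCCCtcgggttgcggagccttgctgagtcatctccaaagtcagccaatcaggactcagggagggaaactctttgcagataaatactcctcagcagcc

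In the Cxcl10 window the ISRE core was matched at bases 213 to 204 before the start and the kappa B consensus at 159 to 150 and, as overlapping matches, at 104 to 95 and 103 to 94. The Cxcl9 window held no exact match to the ISRE core, GAS or kappa B letters, which says only that these letters are not in this window. Both windows held CCAAT (bases 65 to 61 before the start of Cxcl9, 54 to 50 for Cxcl10) and the TATA-like TAAATA (33 to 28 and, overlapping, 29 to 24 for Cxcl9, 19 to 14 for Cxcl10). Over 32851 promoter windows of the same length, 2.98% held the ISRE core, 7.02% the GAS, 7.25% the kappa B consensus, 33.8% CCAAT and 12.7% TAAATA.

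Cxcl9 was the most abundant of the 3 and rose in Cd226-/- macrophages by a small and steady amount. The WT libraries held 1206, 1096 and 1288 CPM and the Cd226-/- libraries 1624, 1483 and 1425 CPM. The lowest Cd226-/- library was 1.11 times the highest WT library, so the genotypes did not overlap. In edgeR's quasi-likelihood test with Benjamini-Hochberg adjustment over all tested genes the rise was 1.26-fold (95% interval 1.16 to 1.38; log2 fold change 0.34 ± 0.061 (SE), adjusted p = 0.00028). Its mean was 1197 ± 96.2 CPM for WT against 1511 ± 102 CPM for Cd226-/- (SD, n = 3). In bulk RNA, more cells of a producing type and more RNA per cell cannot be told apart.

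Cxcl10 differed more in size but did not pass the test. Its levels were 402, 277 and 433 CPM in the WT libraries against 535, 755 and 684 CPM in the Cd226-/- libraries. WT replicate 2 was far below its group, Cd226-/- replicate 1 was the lowest of its own, and the genotypes still did not overlap. The fitted fold was 1.77 (95% interval 1.13 to 2.77; log2 fold change 0.82 ± 0.24 (SE)), with an unadjusted p of 0.0232 and an adjusted p of 0.0683 in edgeR's quasi-likelihood test, with means of 371 ± 82.5 CPM for WT against 658 ± 112 CPM for Cd226-/- (SD, n = 3). The call turned on how the test shares the spread among genes. The robust form used here gives highly variable genes little of the common estimate, and Cxcl10 kept 4.23 degrees of freedom against a median of 21.5 over all tested genes. Without the robust step the same fit gave adjusted p = 1.51e-04, DESeq2 gave 0.0029 and limma-voom 0.000204.

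Cxcl11 was scarce and had the largest fold of the 3. The WT libraries held 92, 32 and 129 counts of it and the Cd226-/- libraries 209, 287 and 304. That is 5.04, 1.87 and 5.84 CPM against 11.5, 17.2 and 16.6 CPM. Every Cd226-/- library was at least 1.97 times the highest WT library. The gene rose 3.48-fold (95% interval 1.71 to 7.08; log2 fold change 1.80 ± 0.40 (SE), adjusted p = 0.0246 in edgeR's quasi-likelihood test), from 4.25 ± 2.10 CPM in WT to 15.1 ± 3.11 CPM in Cd226-/- (SD, n = 3). WT replicate 2 lay below the others by more than counting error: its 32 counts give 1.90 CPM before TMM scaling (95% exact Poisson interval 1.30 to 2.68) and the 92 counts of WT replicate 1 give 5.12 (4.13 to 6.28). The call was lost without WT replicate 1 (adjusted p = 0.0678), Cd226-/- replicate 2 (0.0853) or Cd226-/- replicate 3 (0.0754). It was also lost with replicate number as a block (0.0959), although the replicate numbers share no stated source. With replicate 1 alone for Cd226-/- the log2 fold change was 1.42. Without WT replicate 2 the adjusted p was 1.48e-05 at a log2 fold change of 1.46.

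**Figure D1:**
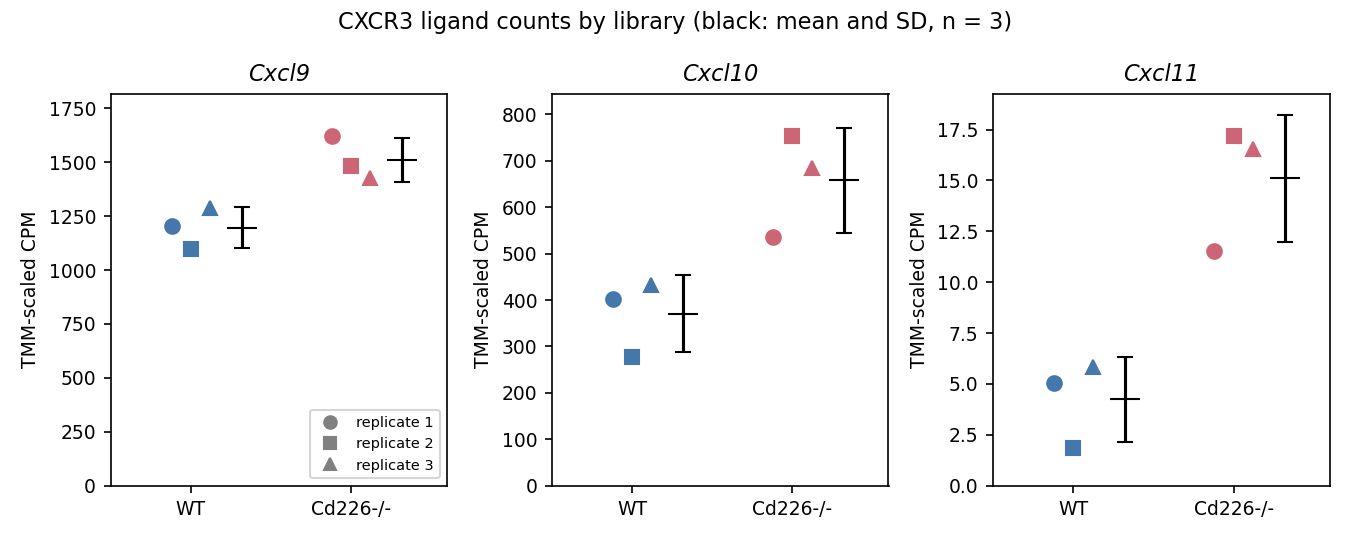
TMM-scaled CPM of Cxcl9, Cxcl10 and Cxcl11 (vertical axes, each from 0) in the 3 WT and 3 Cd226-/- libraries, with a symbol for each replicate number and the mean and SD (n = 3) in black. In each panel all Cd226-/- points lie above all WT points, and WT replicate 2 is the lowest WT library.

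So 2 of the 3 genes passed as higher in Cd226-/- and none as lower, with a median log2 fold change of 0.82 against -0.0045 over all 13215 tested genes. Among all tested genes 16.1% were called higher, 14.8% lower and 30.9% in either direction (2130 genes higher and 1956 lower, against 1773 and 2764 when scaled by library size alone). For all 3 genes the Cd226-/- libraries lay above the WT libraries without overlap, as they did for 22.1% of tested genes (44.3% did not overlap in either direction). Over 15 alternative settings Cxcl9 passed in 15, Cxcl10 in 3 and Cxcl11 in 10, with log2 fold changes above 0 in every one. Among all 13215 tested genes, the log2 fold change of Cxcl11 ranked 84, that of Cxcl10 724 and that of Cxcl9 2313 from the top. Among the 9543 that averaged 5 CPM or more over all libraries, the ranks were 17, 210 and 1090. Cxcl11 met that level only through its Cd226-/- libraries (mean 4.25 CPM in WT and 15.1 CPM in Cd226-/-).

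**Figure D2:**
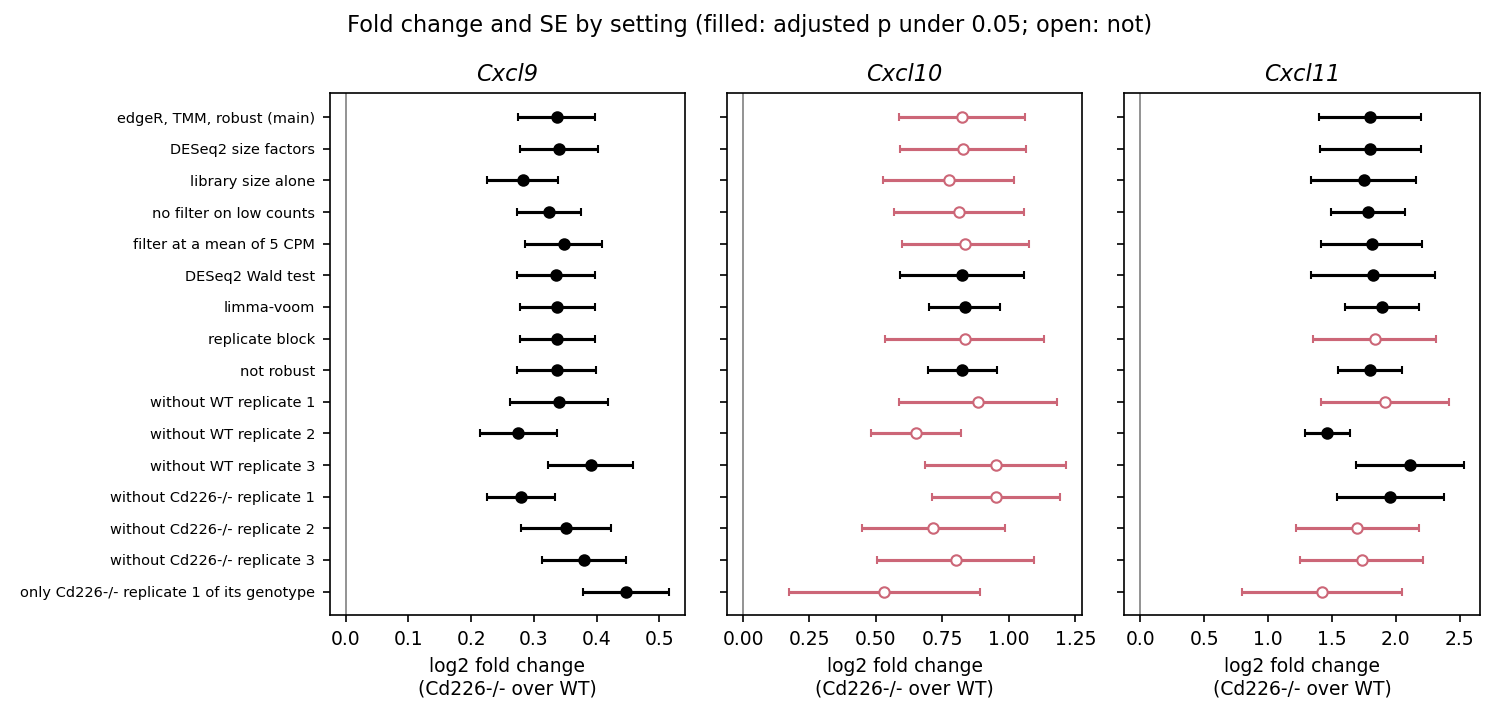
Log2 fold change of each chemokine (Cd226-/- over WT, horizontal axes of different range) with its SE under the main test and 15 alternatives, filled where the adjusted p was under 0.05. Every point lies above 0, and Cxcl10 is filled in 3 alternatives and Cxcl11 in 10.

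The spread between libraries was smallest for Cxcl9 and largest for Cxcl11. The coefficient of variation among WT libraries was 8.04% for Cxcl9, 22.2% for Cxcl10 and 49.4% for Cxcl11, beside a median of 5.53% over tested genes with at least 5 CPM. In Cd226-/- it was 6.77%, 17.1% and 20.6% beside a median of 5.93%. WT replicate 2 was the lowest WT library for all 3 genes and WT replicate 3 the highest. That order was shared by other IFN-γ-induced genes. Of 25 such genes in a separate list, WT replicate 2 was the lowest WT library for 21 and WT replicate 3 the highest for 18, whereas over all tested genes WT replicate 2 was lowest for 34.6% and WT replicate 3 highest for 32.7%. The guanylate-binding protein genes Gbp2 (5329, 4142 and 5483 CPM) and Gbp4 (1499, 1124 and 1645 CPM in the WT libraries) show it. These counts were made after the order was seen, and its part in the genotype difference was not tested beyond leaving out WT replicate 2, which gave log2 fold changes of 0.28 for Cxcl9 (adjusted p = 0.00311), 0.65 for Cxcl10 (adjusted p = 0.061) and 1.46 for Cxcl11.

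Within the Cd226-/- libraries the genes did not share an order. Replicate 1 had the highest Cxcl9 (1624 CPM) but the lowest Cxcl10 (535 CPM) and Cxcl11 (11.5 CPM). Replicate 2 had the highest Cxcl10 and Cxcl11. Replicates 2 and 3, the libraries with hepatocyte transcripts, thus held the higher Cxcl10 and Cxcl11 of the genotype, and were the most alike pair (chi-square over degrees of freedom 2.17, against 7.61 and 7.76 for the pairs with replicate 1). Replicate 1, with those markers at 0, lay above every WT library for all 3 chemokines. Whether the hepatocyte transcripts had a part in these levels was not tested. When replicate 1 alone stood for Cd226-/-, the log2 fold change was 0.45 for Cxcl9 (adjusted p = 1.33e-05), 0.53 for Cxcl10 (adjusted p = 0.476) and 1.42 for Cxcl11 (adjusted p = 0.259).

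Ratios of counts between genes of the same library need no scaling factor and compare the 3 transcripts with each other. Cxcl9 counts per Cxcl10 count came to 3.00, 3.95 and 2.97 for WT against 3.04, 1.97 and 2.08 for Cd226-/-. Cd226-/- replicate 1 lay within the WT range, and the difference of -0.50 in mean log2 ratio did not separate the genotypes (exact permutation test, two-sided, p = 0.3, n = 3 per genotype). For Cxcl11 per Cxcl10 the ratios came to 0.0125, 0.00674 and 0.0135 for WT against 0.0215, 0.0228 and 0.0242 for Cd226-/-. This ratio was 2.19-fold higher in Cd226-/- without overlap, and the 3 Cd226-/- libraries were close together (SD 0.085 on the log2 scale against 0.55 in WT). For Cxcl9 per Cxcl11 they came to 239, 586 and 221 for WT against 141, 86.2 and 86.1 for Cd226-/-, a difference of -1.63 in mean log2 ratio. Each of these last 2 ratios had an exact permutation p of 0.1, the smallest that 3 against 3 libraries allow, and a p of 0.15 adjusted over the 3 ratios.

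**Figure D3:**
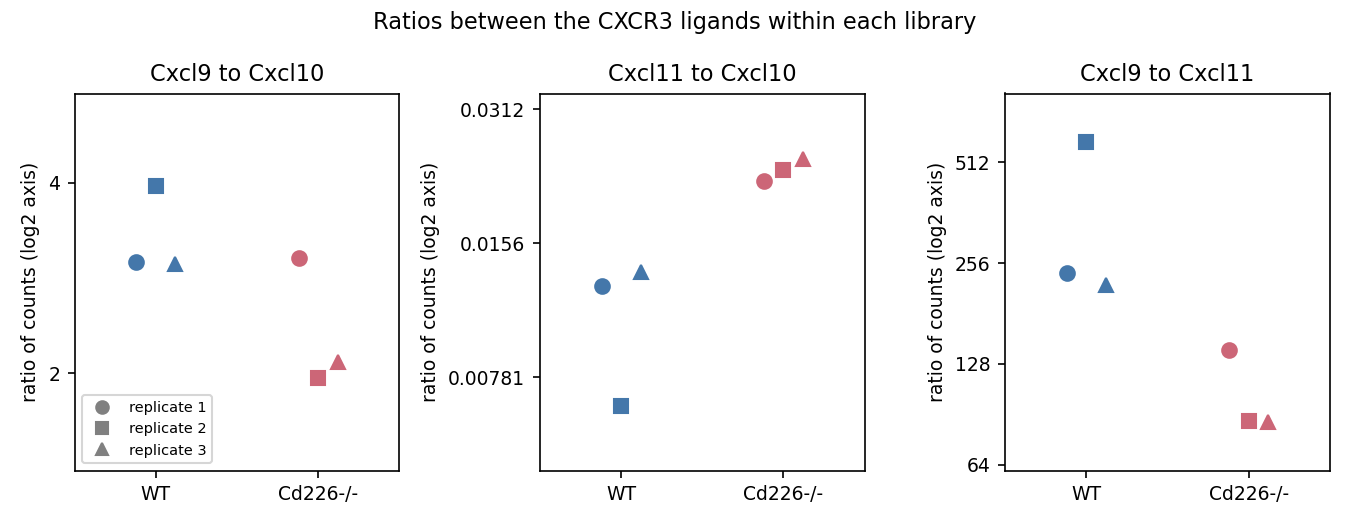
Ratio of counts between pairs of the 3 genes within each library (log2 axes), with a symbol for each replicate number. The Cxcl11 to Cxcl10 and Cxcl9 to Cxcl11 ratios do not overlap between genotypes, whereas Cd226-/- replicate 1 lies among the WT libraries for Cxcl9 to Cxcl10.

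As a share of the 3 genes' counts, Cxcl9 made up 74.6% to 79.7% in WT and 65.8% to 74.8% in Cd226-/-, and Cxcl10 20.2% to 25.1% and 24.6% to 33.5%. Cxcl11 made up 0.136% to 0.338% in WT and 0.531% to 0.779% in Cd226-/-. The summed level of the 3 was 1375 to 1727 CPM in WT and 2126 to 2255 CPM in Cd226-/-, so the Cd226-/- libraries were all above WT and closer together than the WT libraries.

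To compare levels between genes, CPM were divided by the length of the longest protein-coding transcript (2889 bases for Cxcl9, 1353 for Cxcl10 and 1581 for Cxcl11). In WT the level was 414 ± 33.3 CPM per kilobase for Cxcl9, 274 ± 61.0 for Cxcl10 and 2.69 ± 1.33 for Cxcl11 (SD, n = 3). The order of the means was the same in Cd226-/- with 523 ± 35.4, 486 ± 82.9 and 9.55 ± 1.97 CPM per kilobase (SD, n = 3). There Cxcl9 (493 to 562) and Cxcl10 (395 to 558) overlapped. Cxcl10 was above Cxcl9 in Cd226-/- replicates 2 (558 against 513) and 3 (505 against 493), and below it in replicate 1 (395 against 562). In each WT library Cxcl10 (297, 205 and 320) was below Cxcl9 (417, 379 and 446). By merged exons of all transcripts (3016, 2252 and 3794 bases), Cxcl9 and Cxcl10 did not overlap in Cd226-/- (501 ± 33.9 and 292 ± 49.8 CPM per kilobase (SD, n = 3)). On that scale the Cxcl11 libraries held 1.33, 0.493 and 1.54 CPM per kilobase for WT against 3.04, 4.54 and 4.36 for Cd226-/-, lower than on the first scale. On the first scale Cxcl9 ranked 104 and Cxcl10 126 among 12440 tested genes with a length, and Cxcl11 ranked 6629.

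Genes around the cluster moved in both directions. The nearest genes are Ppef2, Naaa and Sdad1 on the Cxcl9 side and Nup54, Scarb2 and the microRNA gene Mir6415 on the Cxcl11 side. Naaa, a lipid amidase of lysosomes, had a log2 fold change of 0.099 (adjusted p = 0.322), Sdad1 0.10 (adjusted p = 0.309) and the nuclear pore gene Nup54 -0.10 (adjusted p = 0.375). Scarb2, a lysosomal membrane protein, fell by 0.34 on the log2 scale (adjusted p = 1.09e-05), and Ppef2 and Mir6415 had too few counts to test. Of 10 tested genes in a wider list of neighbours, 1 rose (Uso1, of vesicle tethering, 1.21-fold) and 3 fell (Scarb2, Cdkl2 and Thap6), with a median log2 fold change of -0.14. Over all tested genes, 16.1% were called higher and 14.8% lower. Thap6 passed in 10 of 15 alternatives (adjusted p up to 0.164), and Cdkl2 in 14, not without WT replicate 2 (adjusted p = 0.11). Art3, a gene of the ADP-ribosyltransferase family on the plus strand, runs across Cxcl10 and Cxcl11. It had 3, 0 and 2 counts in WT and 11, 3 and 1 counts in Cd226-/-. Its transcripts share 133 exon bases with Cxcl10, and the pseudogene Gm2673, with 1 count in all, shares 1582 with the longer Cxcl11 model. The strand setting of the counting is not given in the sources used here, so reads in those stretches cannot be told apart by strand.

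**Figure D4:**
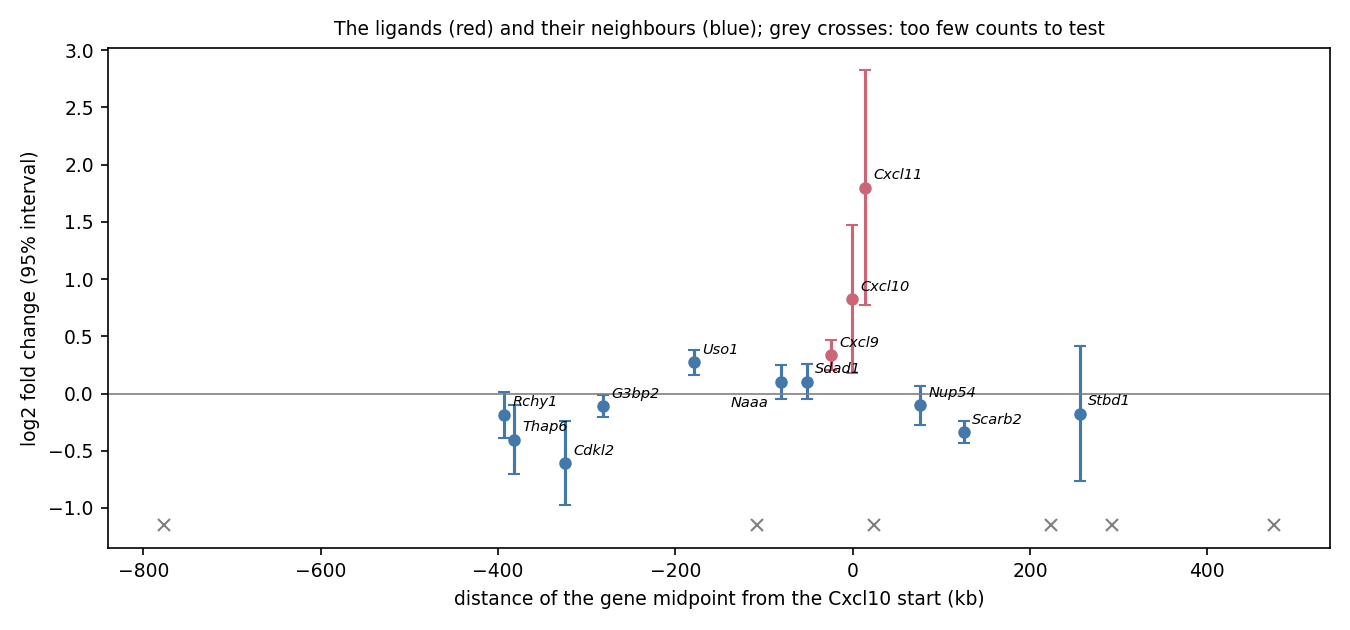
Log2 fold change (Cd226-/- over WT) with its 95% interval for the 3 chemokine genes (red) and listed neighbours (blue, or grey crosses at the foot where counts were too few to test), against the distance of each gene's midpoint from the Cxcl10 start in kilobases. The red points are the 3 highest, and the neighbours next to them, Sdad1 and Nup54, have intervals that include 0.

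Several genes that carry the IFN-γ signal to these promoters rose. Of 19 tested genes of the IFN-γ receptor, JAK-STAT and IRF list, 10 rose and 0 fell, with a median log2 fold change of 0.14. Over all tested genes, 16.1% were called higher and 14.8% lower. Irf8, a macrophage interferon regulatory factor, rose 1.55-fold (from 224 ± 16.9 to 347 ± 20.2 CPM, SD, n = 3, adjusted p = 4.24e-08). The receptor-bound kinase Jak2 rose 1.43-fold and Jak1 1.15-fold, Irf1 rose 1.23-fold and Batf2, an IRF1 partner, 1.29-fold. Ifngr1, the ligand-binding receptor chain, missed the threshold (adjusted p = 0.783 at a log2 fold change of -0.026). Ifngr2, the accessory receptor chain, rose 1.10-fold (adjusted p = 0.0264) and passed in 8 of 15 alternatives. Ifng, whose protein was added to the cultures, averaged 10.3 ± 1.08 CPM for WT against 8.85 ± 1.61 CPM for Cd226-/- (SD, n = 3, adjusted p = 0.262). Without Cd226-/- replicate 1 the log2 fold change of Ifng went from -0.22 to -0.38 and passed as lower (adjusted p = 0.0482).

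In the type I interferon arm 7 of 17 tested genes rose and 1 fell (median log2 fold change 0.12). The shares over all tested genes were 16.1% higher and 14.8% lower. Both receptor chains rose, Ifnar2 1.31-fold and Ifnar1 1.16-fold, as did Stat2 (1.21-fold) and the TLR4 adaptor gene Ticam2 (1.22-fold). Irf9, the DNA-binding partner of STAT2, fell by 0.16 on the log2 scale (adjusted p = 0.0293) and passed in 9 of 15 alternatives. Ifnb1, encoding interferon-β, had 2, 0 and 5 counts in WT and 1, 2 and 2 counts in Cd226-/-, too few to test.

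In the NF-kB and p38 arm 5 of 21 tested genes rose and 5 fell (median log2 fold change 0.059). The shares over all tested genes were 16.1% higher and 14.8% lower. The LPS receptor Tlr4 fell by 0.55 on the log2 scale (from 221 ± 16.1 to 151 ± 6.35 CPM, SD, n = 3, adjusted p = 1.36e-07), with its co-receptor Cd14 (-0.37) and Ikbkg, the regulatory subunit of the IkB kinase (-0.29). Mapkapk2, the kinase that p38 activates, rose 1.29-fold, the ubiquitin ligase gene Traf6 1.22-fold and Zfp36, an RNA-binding protein that destabilises cytokine mRNA, 1.35-fold. The subunits Rela and Nfkb1 missed the threshold (adjusted p = 0.332 at a log2 fold change of 0.071, and 0.237 at 0.084).

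Of 21 tested genes that restrain these pathways 10 rose and 1 fell (median log2 fold change 0.16). Over all tested genes, 16.1% were called higher and 14.8% lower. Socs1, the inhibitor of JAK kinases that IFN-γ induces, had 156, 128 and 171 CPM for WT against 218, 203 and 194 CPM for Cd226-/-, a 1.35-fold rise (adjusted p = 0.00937) that did not pass without Cd226-/- replicate 1 (adjusted p = 0.12) or with it as the only Cd226-/- library (0.222). Tnfaip3, the NF-kB inhibitor A20, rose 1.38-fold, Il10ra, the IL-10 receptor chain, 1.38-fold and Nr1h3, the oxysterol receptor LXRα, 1.57-fold. Zc3h12a, an RNase that cuts cytokine mRNA, fell by 0.37 on the log2 scale. Usp18, which damps type I interferon receptor signalling, missed the threshold (adjusted p = 0.0685 at a log2 fold change of 0.12).

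Among 25 other IFN-γ-induced genes 11 rose, 1 fell and 13 did not pass (median log2 fold change 0.23, from -0.45 to 1.58). The shares over all tested genes were 16.1% higher and 14.8% lower. The adhesion molecule gene Icam1 rose from 293 ± 19.4 to 438 ± 19.1 CPM (SD, n = 3), the chemokine Ccl5 1.52-fold and Nos2, the inducible nitric oxide synthase, 1.16-fold. Gbp2 (0.92-fold, adjusted p = 0.373) and Cd274, encoding PD-L1 (1.02-fold, adjusted p = 0.716), did not pass, and Acod1, the itaconate-producing enzyme, fell by 0.45 on the log2 scale. The immunoproteasome gene Psmb8 rose 3.00-fold from 3.78 ± 0.398 CPM in WT (SD, n = 3). It lies on chromosome 17 with Psmb9, Tap1 and Tnf. Since Tnf was listed at 0 in all 6 libraries, whether the other 3 lost reads was not tested. Over the alternatives the number of this list that rose ran from 9 to 17.

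**Figure D5:**
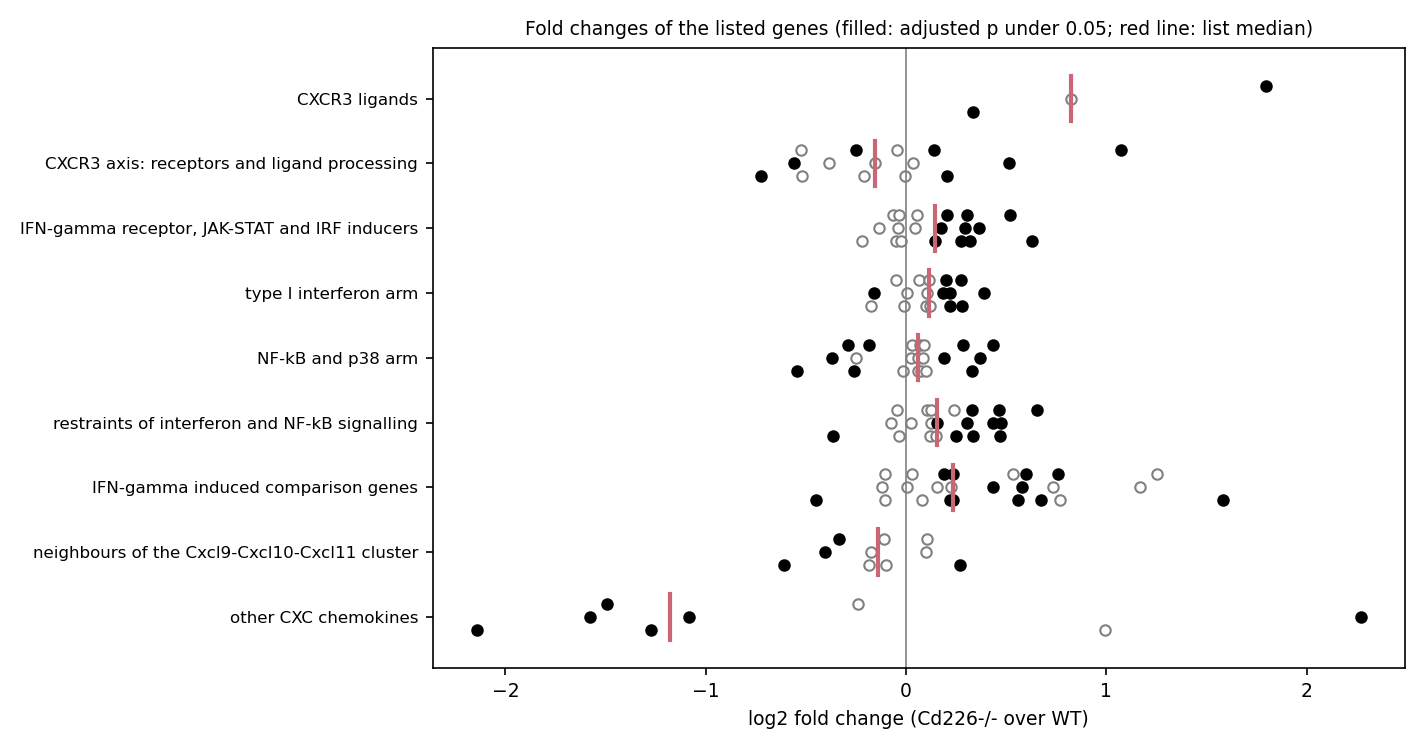
Log2 fold change (Cd226-/- over WT, horizontal axis) of each tested gene in the 9 lists, filled where the adjusted p was under 0.05, with the list median as a red line. The medians of the interferon lists lie between 0.12 and 0.23, that of the 3 CXCR3 ligands at 0.82, and that of the other CXC chemokines at -1.18.

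Downstream of the ligands, Cxcr3 itself was near the detection limit: 8, 2 and 9 counts for WT against 21, 11 and 9 for Cd226-/-, too few to test. Ackr3, a scavenging receptor that binds CXCL11, had 1.85 ± 0.373 and 1.59 ± 0.422 CPM in WT and Cd226-/- (SD, n = 3; adjusted p = 0.660). Of 15 tested genes for receptors, proteases that trim chemokines and the heparan sulfate that holds them, 4 rose and 3 fell (median log2 fold change -0.15). Over all tested genes, 16.1% were called higher and 14.8% lower. Dpp4, the peptidase that inactivates CXCR3 ligands by trimming their ends, rose 2.10-fold but from 1.09 ± 0.467 to 2.34 ± 0.631 CPM (SD, n = 3; adjusted p = 0.0227), and passed in 10 of 14 alternatives. The metalloelastase gene Mmp12 fell by 0.72 on the log2 scale and Ndst1, a heparan sulfate sulfotransferase, by 0.56, while the cathepsin gene Ctsk rose 1.43-fold.

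Of 8 other tested CXC chemokines in the same libraries 1 was higher, 5 were lower and 2 did not pass, with a median log2 fold change of -1.18. The shares over all tested genes were 16.1% higher and 14.8% lower. The neutrophil-attracting Cxcl1 fell by 1.27 on the log2 scale and Cxcl3 by 1.08 (adjusted p = 0.0129). Cxcl12, the ligand of CXCR4, rose 4.82-fold from a low level (3.00 ± 0.654 to 14.3 ± 1.63 CPM, SD, n = 3). Which cells of the culture held it cannot be told from bulk RNA.

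The genes most like each chemokine over the 6 libraries were found by the root mean square difference of centred log2 CPM among 8974 genes. For Cxcl9 these were Nfkbib, an IkB protein (0.012), Mir22hg (0.016), the heparanase gene Hpse (0.027), Kdelr2 (0.034) and the intermediate filament gene Vim (0.035). For Cxcl10 they included Lrrc75a (0.087), Rps6 (0.11) and Stat4, a transducer of IL-12 signals (0.12). Rps6 has processed pseudogenes, so its count is uncertain. The scarcer Cxcl11 had no match as close: the nearest were the B cell antigen gene Ms4a1 (0.34), Aldh18a1 (0.42), Trib3 (0.47), Wdfy1 (0.47) and Psmb8 (0.49). The genes compared had to average at least 5 CPM over all libraries. Ms4a1 (2.03 CPM in WT and 8.18 CPM in Cd226-/-) and Psmb8 (3.78 and 11.3 CPM) met that only through their Cd226-/- libraries, as Cxcl11 did. The distances describe 6 libraries in 2 groups and carry no test.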

How the data were processed

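The deposited file is a table of unnormalized read counts, whole numbers, by gene symbol, with a column for each of the 6 libraries, which were matched to samples by title. HISAT2 and GRCm38 are named in the submitters' processing notes. For the counting tool, its annotation and its use of strand, nothing is given in the sources used here.

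Testing used edgeR 4.0.16 in R 4.3.3 (filterByExpr, TMM, robust quasi-likelihood F-test, genotype as the only term, two-sided), with Benjamini-Hochberg adjustment over 13215 genes. SEs were obtained from the log2 fold change and its F statistic. A single count equalled 0.0462 to 0.0594 CPM. Poisson intervals reflect counting error alone. No 2 libraries of a genotype were alike within sampling noise (chi-square over degrees of freedom 2.17 to 7.76), so all 6 were kept. DESeq2 1.42.0 and limma-voom (limma 3.58.1) served as alternatives. The procedure was tested on simulated data.

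Members and lists were chosen with earlier results of these data known. Named genes were the 3 chemokines, a fixed set of pathway genes, the nearest 3 genes on each side, up to 3 called genes per list and direction, by p, and the 5 most like each chemokine (mean of at least 5 CPM, prior count 2). Tnf, Gbp4, Cxcl3, Ackr3, Alb, Gm2673, Art3 and the single cell type markers were named after their values were seen. Some genes that the rule names are not reported here. Of the listed symbols, Sting1 and Cgas matched as Tmem173 and Mb21d1.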

Additional observations from a re-analysis of the deposited data

How the results depend on the processing

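The 15 alternatives were 2 other scalings, 2 other filters on low counts, DESeq2, limma-voom, the fit without the robust step, a replicate block, the 6 fits without 1 library each, and Cd226-/- replicate 1 alone against WT. Cxcl9 kept its direction and its call in all 15. Cxcl10 kept its direction and passed in 3, with log2 fold changes of 0.82 in DESeq2, 0.83 in limma-voom and 0.82 without the robust step. Without 1 library it ran from 0.65 to 0.95. Cxcl11 kept its direction and ran from 1.46 to 2.11 without 1 library. With only Cd226-/- replicate 1, assumed to vary like the WT libraries, it was 1.42 and no longer passed. The replicate numbers share no stated source, and libraries of the same number did not deviate together (correlations 0.0105, -0.0128 and 0.0151). With the replicate block Cxcl11 was 1.83 (adjusted p = 0.0959), Cxcl10 0.83 (adjusted p = 0.198) and Cxcl9 0.34 (adjusted p = 3.97e-05), with 2185 genes higher and 1952 lower against 2130 and 1956 without it. Scaling by library size alone gave 1773 higher and 2764 lower. Genes that did not pass changed sign in some settings, and the cause was not tested: Cd274 by library size alone (-0.023) and without WT replicate 2 (-0.011) or Cd226-/- replicate 1 (-0.029), Ifngr1 without WT replicate 3 (0.0067; from -0.062 to 0.0067 without 1 library, and from -0.029 to 0.068 for Cd274), and Ifngr1 (0.038) and Ifng (0.052) with Cd226-/- replicate 1 alone. A total of 3 counts corresponds to 0.139 to 0.178 CPM, and Cxcr3 and Ifnb1 had too few counts to test.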
